A study of Mus musculus with 20 samples.

Results

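Collagens and the genes that process them were followed in unloaded and loaded mouse muscle. The set held the 40 collagen chain genes named on the array (Col, a type number, a, a chain number) and 8 processing genes, Serpinh1, P4ha1, P4ha2, Plod1, Plod2, Plod3, Lox and Pcolce, which is 48 of 27962 gene names. They were covered by 89 probes, 31 genes had more than 1 probe, and each gene was represented by the probe that was brightest on average over all 20 arrays. Of the 48 genes, 47 were measured well above background on every array and none of these was saturated. This mark was met by 80.75% to 93.08% of all probes on an array, so it does not show that a gene was strongly expressed. Col28a1 was well above background on 1 array only and was left out.

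The study asked how 1 day without weight bearing alters the transcripts of a postural and of a fast muscle. The RNA was taken from 10 male mice of the ICR strain at 6 months of age, from the soleus and the gastrocnemius of each. The 4 groups were soleus after hind-limb suspension (HLS), soleus of controls, gastrocnemius after HLS and gastrocnemius of controls, with 5 arrays and 5 animals each. In HLS the tail held the animal at a head-down tilt of 45° for 24 h, so the hind limbs bore no weight, while control mice walked freely. Both muscles with 1 number within an arm came from 1 mouse, and HLS and control mice were different animals. Each array carried Cy3-labelled RNA of 1 muscle, so connective tissue, vessels and nerve were measured along with the fibres. In such bulk samples fewer cells of a type and less RNA per cell cannot be told apart.

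Collagens are built from 3 chains that wind into a triple helix, and the repeated glycine along each chain makes the tight winding possible. In the endoplasmic reticulum prolyl and lysyl hydroxylases modify the chains and the chaperone HSP47 holds the finished helix, and after secretion the propeptides are cut off and lysyl oxidase starts the cross-links between molecules. In muscle, fibroblasts make most of the fibrillar collagen that surrounds fibres and bundles and carries force to the tendon, and every fibre lies in a basement membrane that holds collagen IV.

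Levels below are log2 of a probe's intensity over the 75th percentile of all probes of that array. Differences are log2 values ± SE from limma, fitted over all 20 arrays, with 95% intervals, and adjusted p is after the Benjamini-Hochberg method over 25536 genes. A gene is called where that adjusted p is below 0.05. All changes are relative to the array's 75th percentile. Levels of different genes come from different probes and were not compared.

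The muscles' labels were set against fibre genes. Tnni1, the slow troponin I, stood at 6.72 to 7.36 on 9 of the soleus arrays and at 2.57 to 4.19 on the 10 gastrocnemius arrays. Soleus HLS 1 stood apart, with Tnni1 at 4.15 and the fast-fibre gene Actn3 at 7.91, against 2.14 to 5.00 for Actn3 on the other soleus HLS arrays, 1.44 to 4.88 on soleus control arrays and 7.45 to 8.37 on gastrocnemius arrays. Counts of called genes, the values of Lox and the fibre-gene lists are given below with and without this array, as are calls lost on leaving it out. The lists of other pathway genes and of other cell markers, and the values on the spike-in scale, are given with it only. Arrays were scanned on 6 slides over 3 days. Slide 5 held both soleus groups and slide 2 both gastrocnemius groups, while no slide held both muscles. The 75th percentile ran from 385.1 to 735 in intensity units, and with 5 arrays a group the number of arrays sets how precise a value can be.

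In soleus after 24 h of unloading, the lower transcripts included the chaperone HSP47 and the prolyl hydroxylase chains P4ha1 and P4ha2, and no chain of the major fibrillar collagens. Of 47 genes, 11 were lower after HLS, against 3.52% of all genes tested, and 0 were higher, against 2.38%. The 11 were 5 of the 8 processing genes and 6 of the 39 collagens. The median difference was -0.24 over the 47 genes, against 0.05 over all genes tested, and 32 of 47 genes lay below 0, against 39.7% of all genes. All 5 HLS arrays lay below all 5 control arrays for 9 genes, against 2.87% of all genes, and above them for 1 gene, Plod1, against 2.14%. The difference between processing genes and collagens was not tested.

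**Figure D1:**
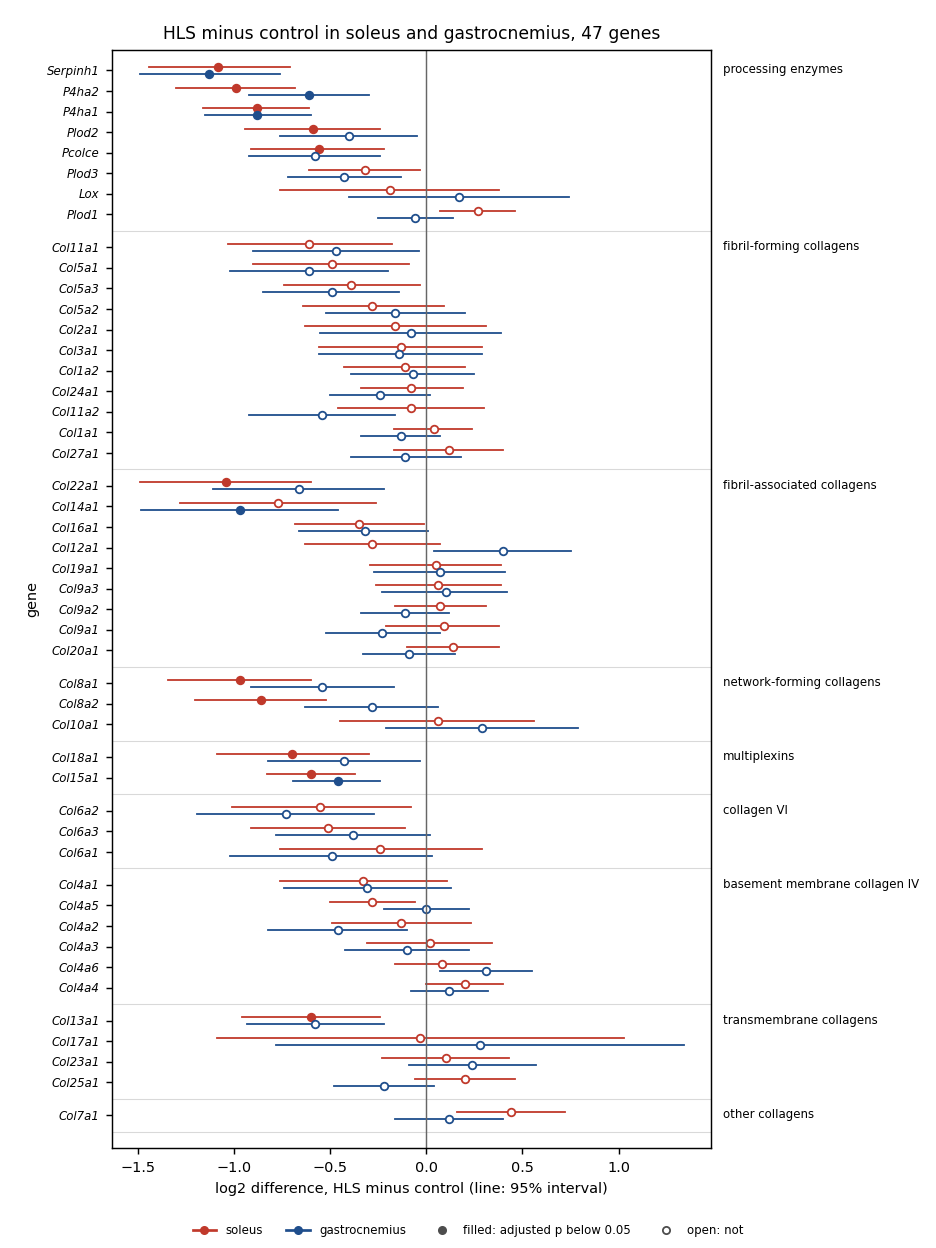
Log2 difference of HLS minus control (horizontal axis) with its 95% interval for each of 47 genes (vertical axis, grouped by kind of collagen), in soleus (red, upper of each pair) and gastrocnemius (blue, lower), n = 5 arrays per group. Filled points have an adjusted p below 0.05: 11 in soleus and 5 in gastrocnemius, each of them left of 0, with Serpinh1 at -1.08 and -1.13.

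Serpinh1 encodes HSP47, the chaperone of the endoplasmic reticulum that binds collagen triple helices. Its level was 4.58, 4.99, 4.94, 5.14 and 4.69 on soleus HLS arrays, against 5.73, 6.33, 5.79, 6.41 and 5.47 on soleus control arrays. Every HLS array lay below every control array, and the highest HLS array was still clear of the lowest control. The difference was -1.08 ± 0.17, which is 2.11-fold lower (adjusted p = 0.00053).

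P4ha1 and P4ha2 encode catalytic chains of prolyl 4-hydroxylase, which turns proline into the hydroxyproline that keeps the helix stable at body temperature, and both genes were lower. P4ha2 stood at 0.96, 1.70, 1.39, 1.79 and 1.50 in soleus HLS, against 2.55, 2.33, 2.23, 2.61 and 2.58 in soleus controls. The groups did not overlap, and HLS 1 was the lowest array. It was 1.99-fold lower (-0.99 ± 0.15, adjusted p = 0.00024). P4ha1 stood at 0.06, -0.52, -0.59, -0.21 and -0.87 in soleus HLS, against 0.46, 0.66, 0.38, 0.56 and 0.22 in soleus controls. All control arrays were above 0 and 4 of the HLS arrays below it, and HLS 1 was the highest HLS array. P4ha1 was 1.84-fold lower (-0.88 ± 0.13, adjusted p = 0.00025), and its second, dimmer probe gave -0.71.

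Plod2 encodes the lysyl hydroxylase that acts on the telopeptides, the ends where cross-links form. It stood at -1.75, -1.77, -1.53, -1.85 and -1.78 in soleus HLS, against -1.19, -1.07, -0.96, -0.90 and -1.60 in soleus controls. The HLS arrays lay close together, and 1 control array, control 5, reached into their range. The difference was -0.59 ± 0.17 (adjusted p = 0.041). Pcolce encodes an enhancer of the protease that removes the C-propeptide of procollagen. Its level was 4.51, 5.11, 4.90, 5.11 and 4.06 in soleus HLS, against 5.22, 5.19, 5.24, 5.62 and 5.24 in soleus controls, a difference of -0.56 ± 0.16 (adjusted p = 0.047). The groups did not overlap, HLS 5 and HLS 1 were the lowest arrays and control 4 the highest. Both calls lay near the threshold: Plod2 lost its call without soleus control 1, 2, 3 or 4 or HLS 1, 2, 4 or 5 (-0.71 to -0.53 over all omissions, adjusted p up to 0.12), and Pcolce without soleus control 1, 2, 3, 4 or 5 or HLS 1, 3 or 5 (-0.66 to -0.39, adjusted p up to 0.14).

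The other 3 processing genes were not called in soleus. Plod1, the lysyl hydroxylase of the helical region, had a difference of 0.27 (95% interval 0.07 to 0.46, adjusted p = 0.12), although every HLS array (-0.05 to 0.21) lay above every control array (-0.44 to -0.06). Plod3, a lysyl hydroxylase that also transfers sugars to hydroxylysine, had -0.32 (-0.61 to -0.03, adjusted p = 0.23), and its second, dimmer probe gave -0.08. Lox, the lysyl oxidase that starts cross-linking, stood at 0.81, -0.81, -1.16, -0.66 and -1.11 in soleus HLS, against -0.53, -0.10, -0.66, -0.13 and -0.56 in soleus controls. HLS 1 was far above the other 4 HLS arrays, all 4 of which lay at or below the lowest control value. With HLS 1 the difference was -0.19 (-0.76 to 0.38, adjusted p = 0.78), and without it -0.54 (adjusted p = 0.087).

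**Figure D2:**
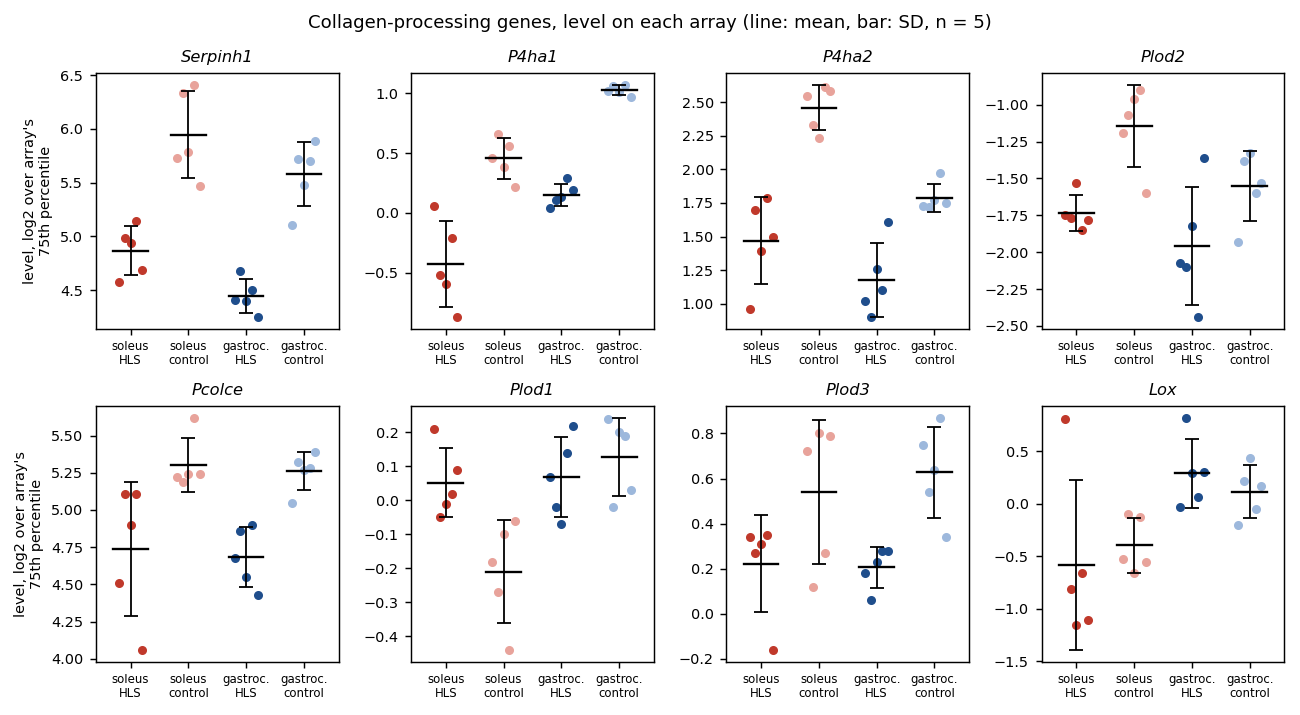
Level of the 8 processing genes on each array (vertical axis, log2 over the array's 75th percentile, a separate scale per gene) in soleus HLS, soleus control, gastrocnemius HLS and gastrocnemius control; points are arrays, the line is the mean and the bar the SD (n = 5). Serpinh1, P4ha1 and P4ha2 show no overlap between HLS and control in either muscle, and Lox has 1 high soleus HLS array at 0.81.

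The 6 collagens called in soleus held no fibril-forming chain. Col22a1, a fibril-associated collagen of the myotendinous junction, stood at 3.03, 3.50, 2.58, 3.64 and 2.29 in soleus HLS, against 4.33, 3.74, 3.84, 4.15 and 4.21 in soleus controls. HLS 3 and HLS 5 were lowest, and no HLS array reached the control range. It was 2.06-fold lower (-1.04 ± 0.21, adjusted p = 0.0039), and a second probe gave -0.73.

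Both chains of collagen VIII, a short-chain collagen of vessel walls that forms hexagonal networks, were lower. Col8a1 stood at 3.40, 3.13, 2.77, 2.93 and 2.54 in soleus HLS, against 3.97, 4.19, 3.79, 4.14 and 3.53 in soleus controls (-0.97 ± 0.18, adjusted p = 0.0016). Col8a2 stood at 0.45, 0.42, -0.24, 0.78 and 0.16 in soleus HLS, against 1.29, 1.38, 0.99, 1.26 and 0.96 in soleus controls (-0.86 ± 0.16, adjusted p = 0.0024). Neither gene overlapped between the groups. The second probe of Col8a1 gave -0.93, and Col8a2 had 1 probe.

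The multiplexins, collagens XV and XVIII, sit at basement membranes and carry heparan or chondroitin sulfate chains. Col15a1 stood at -0.03, 0.15, 0.02, 0.09 and -0.42 in soleus HLS, against 0.49, 0.39, 0.51, 0.83 and 0.56 in soleus controls (-0.60 ± 0.11, adjusted p = 0.0017). Col18a1, the source of endostatin, stood at 1.61, 2.37, 2.50, 2.44 and 1.48 in soleus HLS, against 2.66, 2.64, 2.67, 3.35 and 2.57 in soleus controls (-0.70 ± 0.19, adjusted p = 0.032). In both genes the groups were apart, and HLS 5 was the lowest array. A second, dimmer probe gave 0.09 for Col15a1, so its probes disagreed, and -0.32 for Col18a1. Averaged over both probes, Col15a1 gave -0.26 (adjusted p = 0.099). Without soleus control 4, HLS 1 or HLS 5 the call of Col18a1 was lost (-0.80 to -0.55 over all omissions, adjusted p up to 0.1).

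Col13a1, a transmembrane collagen of cell adhesions and the neuromuscular junction, stood at -0.94, -0.24, -0.20, -0.26 and -0.85 in soleus HLS, against 0.34, -0.33, 0.41, 0.02 and 0.09 in soleus controls (-0.60 ± 0.17, adjusted p = 0.042). Control 2 lay within the HLS range. Its second probe gave -0.03, and the call was lost without soleus control 1, 3, 4 or 5 or HLS 1 or 5 (adjusted p up to 0.12).

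By their brightest probes, the fibril-forming chains held none of the calls in soleus, with 9 of 11 below 0 and a median of -0.13. The 11 include Col2a1 (-0.16), whose brightest probe followed Col3a1 on every array (last section) and whose second probe gave 0.06. Col1a1, the main chain of collagen I, stood at 7.66, 7.55, 7.47, 7.68 and 7.16 in soleus HLS, against 7.56, 7.40, 7.42, 7.50 and 7.43 in soleus controls. The values of both groups lay over each other. The difference was 0.04, with an interval of -0.17 to 0.24. Col1a2, its partner chain, stood at 8.39, 8.27, 8.07, 8.36 and 7.33 in soleus HLS, against 8.32, 8.05, 8.14, 8.30 and 8.18 in soleus controls (-0.11, -0.43 to 0.20). HLS 5 was well below the other arrays. Col3a1, the chain of the thinner, more pliable fibrils, stood at 6.11, 7.05, 7.20, 7.04 and 6.26 in soleus HLS, against 6.76, 6.35, 7.07, 7.34 and 6.78 in soleus controls (-0.13, -0.56 to 0.29). Here HLS 1 and HLS 5 were low and the other 3 lay among the controls.

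Collagens V and XI nucleate fibrils and limit their width, and their chains were not called. Col5a1 of collagen V stood at 2.36, 3.32, 3.43, 3.63 and 2.74 in soleus HLS, against 3.26, 3.51, 3.70, 4.00 and 3.49 in soleus controls (-0.49, -0.90 to -0.09, adjusted p = 0.17). Col11a1 of collagen XI gave -0.61 (-1.03 to -0.18, adjusted p = 0.095). Both intervals lay below 0, and both adjusted p missed the threshold. The second, dimmer probes gave -0.07 for Col5a1 and 0 for Col11a1, so the probes of each gene disagreed.

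Collagen IV, the network of the basement membrane, and collagen VI, the microfibrils that link it to the matrix around the fibre, had no call in soleus. Col4a1 stood at 2.94, 2.78, 2.45, 2.38 and 1.93 in soleus HLS, against 2.62, 2.42, 2.95, 3.22 and 2.91 in soleus controls (-0.33, -0.76 to 0.11, adjusted p = 0.45). The 6 collagen IV chains ran from -0.33 to 0.20. Col6a1 stood at 1.87, 2.32, 2.04, 2.22 and 0.97 in soleus HLS, against 2.31, 1.16, 2.47, 2.02 and 2.63 in soleus controls (-0.24, -0.76 to 0.29, adjusted p = 0.70). HLS 5 and control 2 were low arrays for this gene. Col6a2 gave -0.55 (adjusted p = 0.18) and Col6a3 gave -0.51 (adjusted p = 0.14). In a limma fit over all kept probes, the second, dimmer probe of Col6a2 also gave -0.55 and passed the threshold (adjusted p = 0.017). The dimmer probes of Col6a3 gave 0.17 and 0.19. Col7a1, the chain of the anchoring fibrils under epithelia, had the highest difference of the 47 genes at 0.44 (0.16 to 0.72, adjusted p = 0.059), and without HLS 3 it was 0.55 and called (adjusted p = 0.012).

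**Figure D3:**
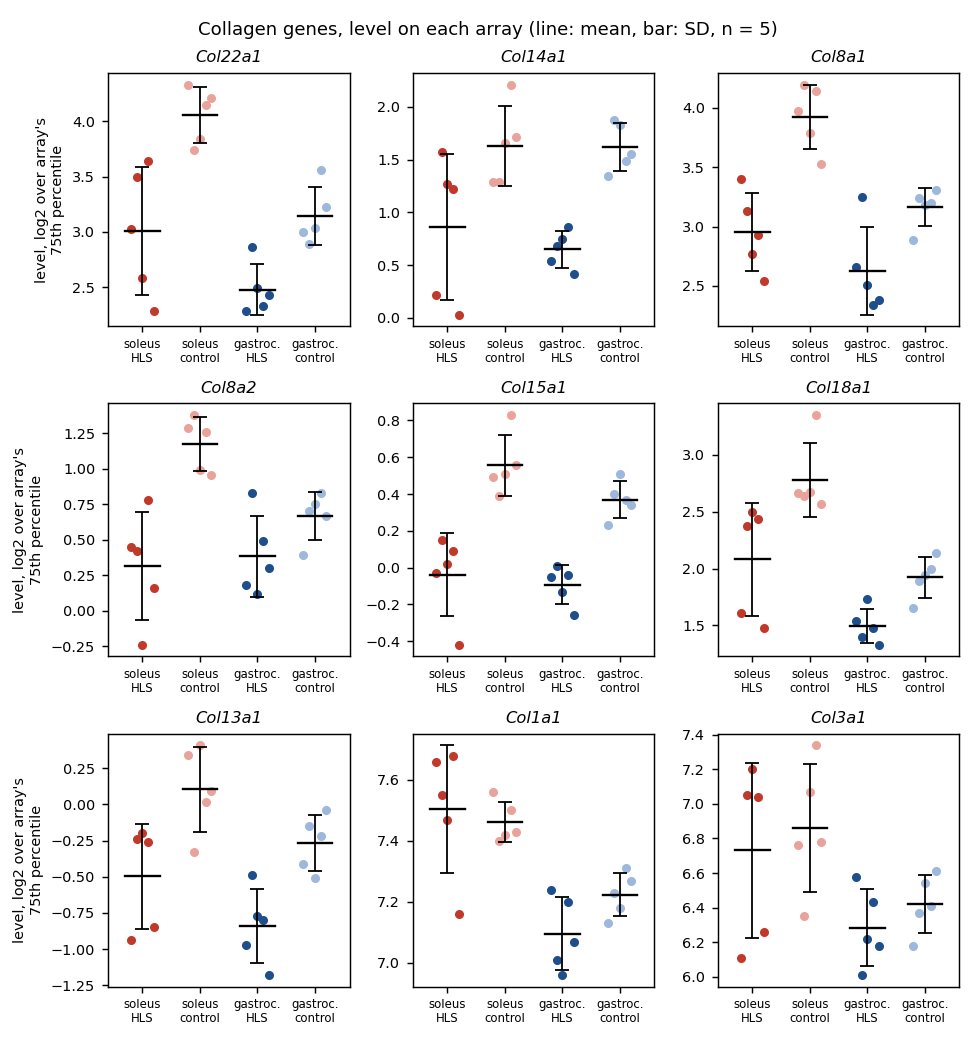
Level of 9 collagen genes on each array (vertical axis, log2 over the array's 75th percentile, a separate scale per gene) in soleus HLS, soleus control, gastrocnemius HLS and gastrocnemius control; points are arrays, the line is the mean and the bar the SD (n = 5). Col15a1 shows no overlap between HLS and control in either muscle, while for Col1a1 in soleus the HLS values from 7.16 to 7.68 span the control values.

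Single arrays bore on the soleus counts. Without soleus control 4, HLS 1 or HLS 5, 7 genes were lower in place of 11. Among the 47 genes, HLS 5 was the lowest soleus HLS array for 21 and control 2 the lowest soleus control array for 22. Within scan day 2, which held 3 HLS and 5 control soleus arrays, all 11 called genes kept their sign (-1.11 to -0.46), and also without HLS 1 (-1.08 to -0.30). With scan day as a block 7 were called. Within slide 5, with 3 HLS arrays and 1 control array, all 11 kept their sign (-1.23 to -0.08). With slide as a fixed block the call of each of the 11 was lost (Serpinh1 -0.63, P4ha2 -1.23, P4ha1 -0.57), in a fit where 1 control array carries the comparison within a slide.

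In gastrocnemius the chaperone and the prolyl hydroxylase chains P4ha1 and P4ha2 were lower again, with 2 collagens. Of 47 genes, 5 were lower after HLS, against 2.01% of all genes tested, and 0 were higher, against 1.15%. The median difference was -0.24, against 0.01 over all genes, and 37 of 47 genes lay below 0, against 47.8% of all genes. HLS and control arrays did not overlap for 11 genes with HLS lower, against 4.46% of all genes, and for 1 gene with HLS higher, Col4a6, against 2.90%. These directions are relative to the array's 75th percentile. Against the E1A spike-in RNA, added in equal volume to each labelling, the median of all genes shifted by 0.77, and 26 of the 47 genes were then higher and 0 lower (Serpinh1 -0.36, P4ha1 -0.10, Col14a1 -0.20, P4ha2 0.17, Col15a1 0.31). That shift was -0.26 in soleus, where 20 genes were then lower and the 11 called genes were among them. The share of all genes called on the spike-in scale was not counted, so these counts cannot be read as particular to collagen genes.

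Serpinh1 stood at 4.41, 4.68, 4.40, 4.50 and 4.25 in gastrocnemius HLS, against 5.11, 5.72, 5.48, 5.70 and 5.89 in gastrocnemius controls. The groups lay well apart. It was 2.19-fold lower (-1.13 ± 0.17, adjusted p = 0.00095). P4ha1 stood at 0.04, 0.11, 0.13, 0.29 and 0.19 in gastrocnemius HLS, against 1.02, 1.06, 1.01, 1.07 and 0.97 in gastrocnemius controls. Each group was tight, and the gap between them was wider than either range. P4ha1 was 1.83-fold lower (-0.88 ± 0.13, adjusted p = 0.00076), and its second probe gave -0.91.

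P4ha2 stood at 1.02, 0.90, 1.26, 1.10 and 1.61 in gastrocnemius HLS, against 1.73, 1.72, 1.77, 1.97 and 1.75 in gastrocnemius controls (-0.61 ± 0.15, adjusted p = 0.025). HLS 5 came close to the controls without reaching them. Col14a1, a fibril-associated collagen that binds the surface of fibrils, stood at 0.54, 0.68, 0.75, 0.86 and 0.42 in gastrocnemius HLS, against 1.34, 1.88, 1.83, 1.49 and 1.55 in gastrocnemius controls. The groups did not overlap, with a 1.96-fold lower mean after HLS (-0.97 ± 0.24, adjusted p = 0.031), while its second, dimmer probe gave -0.13. In soleus Col14a1 gave -0.77 ± 0.24 (adjusted p = 0.07). Col15a1 stood at -0.05, 0.01, -0.13, -0.04 and -0.26 in gastrocnemius HLS, against 0.23, 0.40, 0.51, 0.37 and 0.34 in gastrocnemius controls (-0.46 ± 0.11, adjusted p = 0.022). These groups were also apart, and the second probe gave 0.12.

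The calls of Col14a1, P4ha2 and Col15a1 in gastrocnemius were lost on leaving out single arrays. Col14a1 lost its call without gastrocnemius control 2, 3, 4 or 5 or HLS 1, 2, 3 or 5 (adjusted p up to 0.09), P4ha2 without control 2, 3 or 4 or HLS 1, 2 or 4 (up to 0.072), and Col15a1 without control 2 or 3 or HLS 3 or 5 (up to 0.07). The count was 2 without control 2 or 3 and 3 without control 4 or HLS 1, 3 or 5. Within slide 2 and within scan day 1, each with 1 HLS array, all 5 called genes kept their sign (-1.28 to -0.45 and -1.17 to -0.42), and with slide or scan day as a fixed block 0 were called (Serpinh1 -1.28 and -1.17, P4ha1 -0.98 and -0.99).

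The remaining processing genes in gastrocnemius were not called. Pcolce stood at 4.68, 4.86, 4.55, 4.90 and 4.43 in gastrocnemius HLS, against 5.05, 5.32, 5.27, 5.28 and 5.39 in gastrocnemius controls (-0.58 ± 0.16, adjusted p = 0.061). Its groups did not overlap, and the value lay next to the -0.56 of soleus. Plod2 stood at -2.07, -2.10, -1.82, -2.44 and -1.36 in gastrocnemius HLS, against -1.93, -1.38, -1.33, -1.60 and -1.53 in gastrocnemius controls (-0.40, -0.76 to -0.05, adjusted p = 0.25), with wide overlap. Plod3 gave -0.43 (-0.72 to -0.13, adjusted p = 0.12), with all HLS arrays (0.06 to 0.28) below all control arrays (0.34 to 0.87). The second, dimmer Plod3 probe gave -0.02, so the probes disagreed. Lox stood at -0.03, 0.82, 0.29, 0.06 and 0.30 in gastrocnemius HLS, against -0.20, 0.22, 0.44, -0.05 and 0.17 in gastrocnemius controls (0.17, -0.40 to 0.74). HLS 2 was the high array there, and the groups overlapped. Plod1 gave -0.06 (-0.25 to 0.14).

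By their brightest probes, all 11 fibril-forming chains lay below 0 in gastrocnemius, from -0.61 to -0.07, with none called. They include Col2a1 (-0.08), whose brightest probe followed Col3a1 on every array (last section) and whose second probe gave 0.02. Dimmer probes also lay above 0 for Col3a1 (0.15 and 0.28), Col11a2 (0.25), Col5a1 (0.05) and Col24a1 (0.01). They lay below 0 for Col1a2 (-0.35), Col11a1 (-0.21) and Col5a3 (-0.09). For Col1a1 (-0.40 and 0.08) and Col27a1 (-0.01 and 0.20) they lay on both sides. Col1a1 stood at 7.24, 7.01, 6.96, 7.20 and 7.07 in gastrocnemius HLS, against 7.13, 7.23, 7.18, 7.31 and 7.27 in gastrocnemius controls (-0.13, -0.34 to 0.07). Col1a2 stood at 7.75, 7.90, 7.75, 8.10 and 7.97 in gastrocnemius HLS, against 7.78, 7.93, 8.05, 8.10 and 7.99 in gastrocnemius controls (-0.07, -0.39 to 0.25). Col3a1 stood at 6.58, 6.01, 6.22, 6.43 and 6.18 in gastrocnemius HLS, against 6.18, 6.37, 6.54, 6.41 and 6.61 in gastrocnemius controls (-0.14, -0.56 to 0.29). These 3 genes overlapped between the groups. Col5a1 stood at 2.82, 2.65, 2.74, 3.08 and 2.80 in gastrocnemius HLS, against 3.09, 3.47, 3.62, 3.34 and 3.64 in gastrocnemius controls (-0.61, -1.02 to -0.20, adjusted p = 0.10). On this probe the HLS arrays of Col5a1 were all below its control arrays, HLS 4 and control 1 being nearly equal.

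Collagen VI in gastrocnemius ran from -0.73 for Col6a2 (adjusted p = 0.084) to -0.38 for Col6a3, and for both of these the HLS arrays lay below all control arrays. Dimmer probes gave -0.34 for Col6a2, and -0.04 and -0.16 for Col6a3. Col6a1 stood at 2.13, 2.15, 1.80, 2.20 and 1.90 in gastrocnemius HLS, against 2.47, 2.54, 2.96, 2.54 and 2.13 in gastrocnemius controls (-0.49, -1.02 to 0.03). Col4a1 stood at 3.07, 2.52, 2.41, 2.45 and 2.46 in gastrocnemius HLS, against 2.68, 2.86, 3.57, 2.87 and 2.46 in gastrocnemius controls (-0.31, -0.74 to 0.13). HLS 1 was the high array of its group and control 3 of its own. Col12a1, a fibril-associated collagen of tendon and fascia, had the highest difference, 0.40 (0.04 to 0.75, adjusted p = 0.26).

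Serpinh1, P4ha1, P4ha2 and Col15a1 were called in both muscles. The comparisons share no array, but both muscles came from the same mice and a common fit gave the spread. The comparisons are thus not independent. Their promoter windows, from 250 bases upstream to the transcript start, are printed because these genes were lower in both. The sequences are RefSeq's for GRCm38.p6, 5′ to 3′ on the gene's own strand, at chr7:99353240-99353489 (minus strand) for Serpinh1, chr10:59323046-59323295 (plus) for P4ha1, chr11:54100674-54100923 (plus) for P4ha2 and chr4:47207762-47208011 (plus) for Col15a1. Capitals mark matches, on either strand, to ACGTG, the core letters of the hypoxia response element (CACGT where it lies on the opposite strand), or to GAANNTTC or TTCNNGAA, paired units of a heat shock element.
Serpinh1: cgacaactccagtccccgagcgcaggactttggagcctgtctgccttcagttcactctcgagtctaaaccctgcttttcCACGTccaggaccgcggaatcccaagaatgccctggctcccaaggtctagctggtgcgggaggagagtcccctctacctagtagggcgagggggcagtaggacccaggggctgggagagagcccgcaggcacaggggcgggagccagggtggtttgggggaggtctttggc
P4ha1: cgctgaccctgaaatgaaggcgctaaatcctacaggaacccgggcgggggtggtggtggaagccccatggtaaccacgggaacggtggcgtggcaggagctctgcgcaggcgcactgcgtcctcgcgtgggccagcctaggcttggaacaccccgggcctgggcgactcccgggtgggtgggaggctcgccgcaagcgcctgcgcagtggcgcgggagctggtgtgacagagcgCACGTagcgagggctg
P4ha2: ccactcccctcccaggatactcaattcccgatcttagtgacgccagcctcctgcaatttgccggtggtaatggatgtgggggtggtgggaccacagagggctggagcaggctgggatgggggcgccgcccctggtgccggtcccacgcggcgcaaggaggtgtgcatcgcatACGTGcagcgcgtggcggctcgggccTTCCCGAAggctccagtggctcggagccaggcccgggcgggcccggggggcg
Col15a1: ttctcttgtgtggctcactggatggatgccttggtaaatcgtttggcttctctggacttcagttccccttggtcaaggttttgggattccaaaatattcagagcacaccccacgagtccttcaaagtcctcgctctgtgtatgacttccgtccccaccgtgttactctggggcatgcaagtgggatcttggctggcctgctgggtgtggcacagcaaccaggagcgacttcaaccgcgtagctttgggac

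ACGTG was found in the windows of Serpinh1 (171 bases upstream of the start, opposite strand), P4ha1 (16 bases, opposite strand) and P4ha2 (78 bases, gene strand), and in 16.6% of all 32851 windows of this length. The paired heat shock units were found 52 bases upstream of P4ha2, and in 12.8% of all windows. CCAAT was found in none of the 4 windows and in 33.8% of all. The motifs do not overlap one another in these windows. Of the 48 genes, 38 had a window in the table, and 8, 3 and 13 of them held ACGTG, the paired units and CCAAT. The G and C content was 63.6% for Serpinh1, 69.6% for P4ha1, 70.0% for P4ha2 and 53.6% for Col15a1, against a median of 52.4% over all windows. These matches are a description of letters and no measurement of binding.

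Whether the muscles answered differently was tested as the soleus effect minus the gastrocnemius effect. None of the 47 genes was called in this fit with limma, against 0.00783% of all genes lower (2 genes) and 0 higher. At an unadjusted p below 0.05, 4 of the 47 genes passed (Col12a1, Col8a2, Col25a1 and Plod1), against 5.74% of all genes, so the number was near the background. For Serpinh1 the effects differed by 0.05 (-0.46 to 0.57) and for P4ha1 by -0.01 (-0.40 to 0.38). For P4ha2 the value was -0.38 (-0.82 to 0.05). Col8a2, called in soleus alone, gave -0.57 (-1.06 to -0.09, adjusted p = 0.78), and Col12a1 gave -0.67 (-1.17 to -0.18, adjusted p = 0.70). Calls that were made in 1 muscle were thus not shown to be particular to it. On the spike-in scale, where the shift of all genes between the muscles' effects was -1.03, 44 of the 47 genes were called with a more negative difference in soleus. The share of all genes called there was not counted.

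The muscle difference was then examined in each arm, since HLS and control mice are separate animals. In HLS mice 3 genes were higher in soleus, against 13.3% of all genes, and 7 lower, against 17.6%. In control mice 5 were higher, against 12.6%, and 7 lower, against 20.9%. These shares were near or below those of all genes. In both arms Col18a1 was higher in soleus, and Col24a1, Col7a1, P4ha1 and Col9a3 were lower. Col24a1 and Col9a3 had low mean levels, -0.84 and -2.19. In a fit over all probes, some dimmer second probes were called lower in control soleus where the brightest was not. Among them were Col14a1 at -1.17 and Col13a1 at -1.08, against 0.01 and 0.37 for the brightest. The second probes of Col22a1, Col8a1 and Col18a1 were called higher (1.28, 0.59 and 0.34). Whether low signal bears on the muscle differences was not tested. Muscle and slide cannot be told apart in either arm, nor muscle and scan day in controls. Among HLS arrays of scan day 2 all 10 genes kept their sign.

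**Figure D4:**
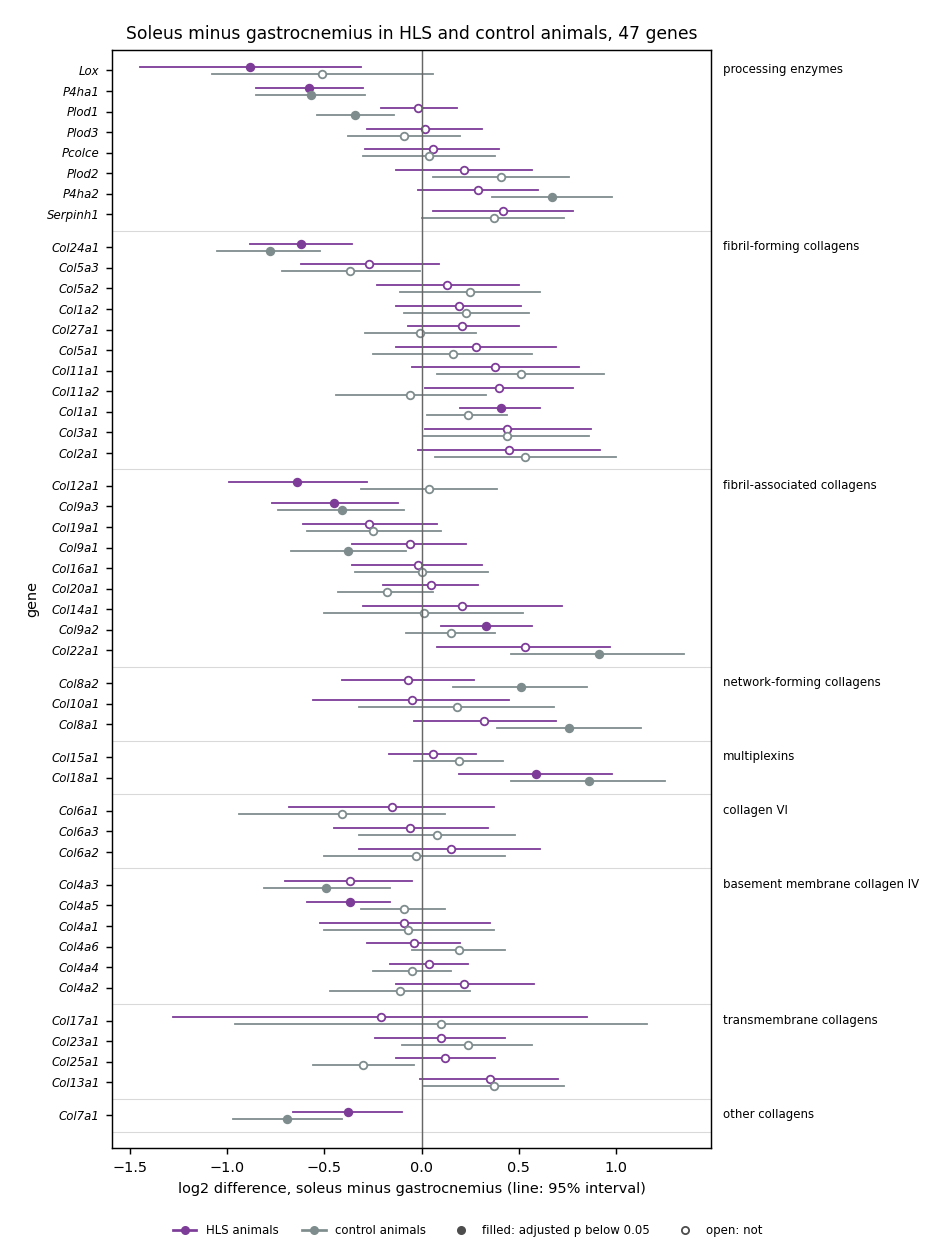
Log2 difference of soleus minus gastrocnemius (horizontal axis) with its 95% interval for each of 47 genes (vertical axis, grouped by kind of collagen), in HLS animals (purple, upper of each pair) and control animals (grey, lower), n = 5 arrays per group. Filled points have an adjusted p below 0.05. P4ha1 lies left of 0 in both arms (-0.58 and -0.57), and P4ha2 lies right of 0 in both (0.29 and 0.67).

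P4ha1 and P4ha2 differed in opposite directions between the muscles of control mice. P4ha1 was lower in soleus in HLS mice (-0.58 ± 0.13, adjusted p = 0.0028) and in control mice (-0.57 ± 0.13, adjusted p = 0.0027), and in controls no soleus array reached a gastrocnemius array. In the fit over all probes, its second, dimmer probe gave -0.25 in HLS mice (adjusted p = 0.19) and -0.45 in control mice (adjusted p = 0.018), so in HLS mice the call rested on the brighter probe. P4ha2 was higher in soleus by 0.67 ± 0.15 in control mice (adjusted p = 0.0018), and gave 0.29 (-0.02 to 0.60, adjusted p = 0.14) in HLS mice. On the spike-in scale the shift of all genes was 0.01 in HLS mice and 1.04 in control mice, and P4ha1 was then higher in control soleus, at 0.47.

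Among collagens, Col18a1 was higher in soleus by 0.59 ± 0.19 in HLS mice (adjusted p = 0.024) and by 0.86 ± 0.19 in control mice (adjusted p = 0.0019). Its level in gastrocnemius was 1.54, 1.40, 1.73, 1.48 and 1.33 in HLS mice and 1.65, 1.89, 1.94, 2.00 and 2.14 in controls, so the soleus and gastrocnemius control arrays did not overlap. Col22a1, Col8a1 and Col8a2, all lower in soleus after HLS, were higher in control soleus than in control gastrocnemius, by 0.91 (adjusted p = 0.0029), 0.76 (0.0028) and 0.51 (0.023). Col22a1 stood at 3.00, 2.89, 3.04, 3.56 and 3.23 in gastrocnemius controls, Col8a1 at 2.89, 3.24, 3.18, 3.20 and 3.31 and Col8a2 at 0.39, 0.70, 0.75, 0.83 and 0.67, and for each gene the soleus controls given above lay higher throughout. In HLS mice the genes differed by 0.53, 0.32 and -0.07, without a call. The probes of Col22a1 disagreed on this: its second, dimmer probe was called in HLS mice (1.12, adjusted p = 0.00063) as in control mice (1.28, adjusted p = 0.00016). Col22a1 then stood at 2.29, 2.86, 2.49, 2.33 and 2.43 in gastrocnemius HLS, Col8a1 at 2.66, 3.25, 2.51, 2.34 and 2.38 and Col8a2 at 0.18, 0.83, 0.12, 0.49 and 0.30. The soleus control arrays enter both of these comparisons, so they are not independent of each other.

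Col24a1, a fibril-forming chain known from bone and cornea, stood at -1.14, -1.35, -1.01, -1.30 and -1.33 in soleus HLS, against -1.05, -0.44, -0.35, -0.49 and -0.70 in gastrocnemius HLS (-0.62 ± 0.13, adjusted p = 0.0011). It stood at -1.44, -1.06, -1.14, -1.09 and -1.03 in soleus controls, against -0.13, -0.41, -0.35, -0.38 and -0.54 in gastrocnemius controls (-0.78 ± 0.13, adjusted p = 0.00013). The control arrays of the muscles did not overlap, and in HLS mice gastrocnemius HLS 1 lay within the soleus range. Its second probe gave -0.51 and -0.54.

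Col7a1 stood at 2.43, 2.53, 1.86, 2.44 and 2.26 in soleus HLS, against 2.90, 2.33, 2.69, 2.80 and 2.67 in gastrocnemius HLS (-0.38 ± 0.13, adjusted p = 0.038). In controls it stood at 2.08, 1.59, 1.77, 1.86 and 2.03 in soleus, against 2.53, 2.44, 2.53, 2.78 and 2.51 in gastrocnemius (-0.69 ± 0.13, adjusted p = 0.00065). All soleus control arrays were below the gastrocnemius controls. Col9a3, a chain of the cartilage collagen IX, stood at -2.22, -2.46, -2.58, -2.61 and -1.99 in soleus HLS, against -2.07, -2.23, -1.64, -1.79 and -1.89 in gastrocnemius HLS (-0.45 ± 0.16, adjusted p = 0.034). In controls it stood at -2.61, -2.18, -2.02, -2.61 and -2.75 in soleus, against -2.02, -1.89, -1.98, -2.31 and -1.89 in gastrocnemius (-0.41 ± 0.16, adjusted p = 0.045). The muscles overlapped in both arms.

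The remaining calls were each made in 1 arm. In HLS mice Lox was lower in soleus (-0.88 ± 0.27, adjusted p = 0.02), and without soleus HLS 1, its high array, the difference was -1.23 (adjusted p = 5.3e-05). Col12a1 stood at -3.19, -2.67, -3.35, -3.03 and -2.93 in soleus HLS, against -2.55, -2.19, -2.53, -1.98 and -2.75 in gastrocnemius HLS (-0.64 ± 0.17, adjusted p = 0.008). Col4a5 of collagen IV stood at -1.34, -1.40, -1.28, -1.36 and -1.10 in soleus HLS, against -0.99, -0.76, -1.03, -0.96 and -0.87 in gastrocnemius HLS (-0.37 ± 0.10, adjusted p = 0.01). Col4a5 did not overlap between the muscles, and Col12a1 did by 1 array on each side. Col9a2 stood at -1.12, -0.87, -0.78, -1.11 and -1.17 in soleus HLS, against -1.23, -1.39, -1.53, -1.43 and -1.15 in gastrocnemius HLS (0.33 ± 0.11, adjusted p = 0.029). Soleus HLS 5 stood just below gastrocnemius HLS 5, and the other soleus arrays were above all of the gastrocnemius. Col1a1 gave 0.41 ± 0.10 (adjusted p = 0.004), with soleus HLS 5 the 1 soleus array inside the gastrocnemius range. For Col1a1 the other probes pointed the other way (-0.22 and -0.29), so that the mean over its probes was -0.03.

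Without soleus HLS 1, 9 genes were higher in HLS soleus in place of 3, without HLS 2 there was 1, and without HLS 5 there were 6. Without soleus HLS 3, 4 were lower in place of 7. Calls lost on leaving out single arrays were, in HLS mice, those of Col18a1 (gastrocnemius HLS 2 or 5, soleus HLS 2, 3 or 4; adjusted p up to 0.074), Col7a1 (gastrocnemius HLS 1, 3, 4 or 5, soleus HLS 3 or 5; up to 0.13) and Col9a2 (gastrocnemius HLS 2, 3 or 4, soleus HLS 2 or 3; up to 0.086). The same held for Col9a3 (gastrocnemius HLS 3, 4 or 5, soleus HLS 2, 3 or 4; up to 0.089) and Lox (gastrocnemius HLS 2, soleus HLS 3 or 5; up to 0.061).

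In controls 3 further genes were lower in soleus. Col4a3 of collagen IV stood at -1.88, -1.21, -2.09, -1.67 and -1.66 in soleus controls, against -1.07, -1.38, -1.25, -1.47 and -0.91 in gastrocnemius controls (-0.49 ± 0.16, adjusted p = 0.021), and its other probes gave -0.23 and -0.91. Col9a1 stood at -1.33, -0.60, -1.29, -1.15 and -1.44 in soleus controls, against -0.55, -0.82, -0.90, -0.79 and -0.87 in gastrocnemius controls (-0.38 ± 0.14, adjusted p = 0.048). Soleus control 2 was the high soleus array for both genes and lay within the gastrocnemius range. Plod1 stood at -0.18, -0.27, -0.10, -0.44 and -0.06 in soleus controls, against 0.24, -0.02, 0.20, 0.19 and 0.03 in gastrocnemius controls (-0.34 ± 0.09, adjusted p = 0.01), with no overlap. Without gastrocnemius control 1 or 5 or soleus control 1, 4 genes were lower in place of 7. Calls were lost for Col4a3 (gastrocnemius control 1 or 5, soleus control 1 or 3; adjusted p up to 0.064), Col8a2 (gastrocnemius control 1, soleus control 2; up to 0.065), Col9a1 (each control array but soleus control 2; up to 0.12) and Col9a3 (gastrocnemius control 1, 2, 3 or 5, soleus control 1, 4 or 5; up to 0.12). On the spike-in scale the 7 genes lower in control soleus each turned sign.

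The chains of 1 collagen type could be read side by side, since several are encoded next to each other (Col4a1 with Col4a2, Col4a3 with Col4a4, Col4a5 with Col4a6, Col6a1 with Col6a2). In soleus the HLS difference was -0.33 for Col4a1 and -0.13 for Col4a2, 0.02 for Col4a3 and 0.20 for Col4a4, and -0.28 for Col4a5 and 0.08 for Col4a6. In gastrocnemius it was -0.31 and -0.46, -0.10 and 0.12, and 0.00 and 0.31 for the same pairs. No chain of these pairs was called in either HLS comparison. The neighbours Col6a1 and Col6a2 gave -0.24 and -0.55 in soleus and -0.49 and -0.73 in gastrocnemius.

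Other genes of the collagen pathway were read from lists, and their counts stand against 3.52% of all genes lower and 2.38% higher in soleus, and 2.01% lower and 1.15% higher in gastrocnemius. Of 16 listed genes of folding, hydroxylation and secretion, 4 were lower in soleus and 0 higher, with 15 of 16 below 0, against 39.7% of all genes, and a median of -0.23, against 0.05. Hspa5, the chaperone BiP, gave -0.93 ± 0.13 (adjusted p = 8.8e-05), Fkbp14, a prolyl isomerase, -0.86 ± 0.12, and Hsp90b1, the chaperone GRP94, -0.74 ± 0.13. The fourth was Pdia3, a disulfide isomerase, at -0.73. In gastrocnemius 3 were lower, Hspa5 (-0.77), Fkbp10 (-0.69), a collagen prolyl isomerase, and Fkbp14 (-0.63), with a median of -0.27, against 0.01 over all genes. Hspa5 and Fkbp14 were thus called in both muscles. Whether the change in this list was particular to collagen folding, rather than shared with folding of other proteins, was not tested.

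Against the same shares, of 13 genes listed under collagen cleavage and cross-linking, 1 was lower in each muscle, the protease gene Prss23 (-1.22 in soleus, -0.91 in gastrocnemius). Whether the product of Prss23 acts on collagen was not tested. Of 20 fibril-binding proteoglycans and glycoproteins, 3 were lower in soleus, Postn (-1.08), Thbs1 (-1.07) and Tnc (-0.67), and 2 in gastrocnemius, Tnxb (-0.93) and Tnc (-0.59). Of 16 genes of collagen breakdown, Timp1, an inhibitor of matrix metalloproteinases, was lower in both muscles (-2.24 ± 0.23 and -1.88 ± 0.23), and Mmp11 was higher in soleus (0.82 ± 0.21). None of 11 collagen receptor genes was called in either muscle. Of 10 other basement membrane genes, Lama5 was higher (0.48) and Lama4 lower (-0.59) in soleus, and 0 were called in gastrocnemius.

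Markers of cells that could carry collagen transcripts were read on the same arrays, and each listed marker was well above background on all 20. Their counts too stand against 3.52% of all genes lower in soleus and 2.01% in gastrocnemius. In soleus 2 of 10 fibroblast markers were lower (Mfap5 -0.99, Fbn1 -0.93; median -0.22), 1 of 9 tendon markers (Scx -0.78; -0.14) and 2 of 8 markers of smooth muscle and pericytes (Tagln -1.20, Cspg4 -0.60; -0.47). Of 7 endothelial, 7 Schwann cell, 7 macrophage, 5 adipocyte and 5 cartilage markers none was called in soleus, with medians of -0.03, -0.56, -0.22, -0.72 and -0.01. Fibre genes were not called either, but all 8 slow-fibre markers lay below 0 in soleus (median -0.53) and 0 of 7 fast-fibre markers did (median 0.31). Without soleus HLS 1 these were 5 of 8 (median -0.05) and 3 of 7 (median 0.02), while the median of the 47 genes was -0.23 without that array and -0.24 with it. In gastrocnemius 1 of 10 fibroblast markers (Fbn1 -0.78; -0.28), 1 tendon marker (Scx -0.75; -0.20), 1 smooth muscle marker (Cspg4 -0.40; -0.41) and 1 endothelial marker (Kdr -1.12; -0.04) were lower. The mean fibroblast marker level was 2.37 to 3.03 on soleus HLS arrays, against 2.58 to 3.46 on soleus control arrays, and 2.46 to 2.74 on gastrocnemius HLS arrays, against 2.70 to 2.94 on gastrocnemius control arrays. The mean tendon marker level was 2.17 to 3.35 on soleus HLS arrays, against 2.65 to 3.16 on soleus control arrays, and 2.17 to 2.86 on gastrocnemius HLS arrays, against 2.54 to 2.88 on gastrocnemius control arrays. Fibroblast and tendon means overlapped between HLS and control in both muscles, and their part in the collagen results was not tested. The mean over smooth muscle markers was 2.56 to 3.26 on soleus HLS arrays, against 3.04 to 3.81 on soleus control arrays, and 2.52 to 2.69 on gastrocnemius HLS arrays, against 2.94 to 3.42 on gastrocnemius control arrays, where the groups did not overlap. The mean over the 47 genes was 0.77 to 1.18 on soleus HLS arrays, against 1.23 to 1.43 on soleus control arrays, and 0.93 to 1.05 on gastrocnemius HLS arrays, against 1.16 to 1.32 on gastrocnemius control arrays.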

How the data were processed

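The files deposited by the authors give linear intensity per spot, background-subtracted and detrended but not scaled between arrays; the scanner software was Feature Extraction 9.1.3.1 of Agilent, per the file headers. Their table of values matched the processed intensity within 0.497% and served as an alternative. Each array held 43379 non-control spots of 45018, and 80.75% to 93.08% of probes were well above background. Replicate arrays correlated at 0.9713 to 0.9881.

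Marked uneven spots (at most 43 per array) were left out, each array was divided by its 75th percentile over non-control spots and log2 was taken. Each gene name was represented by its brightest probe. A gene was kept where that probe was well above background on 4 or more of the 5 arrays in any 1 group (25536 genes). Gene names are those of the scanner files; the member genes were looked up in the RefSeq gene table, 41 by accession and 7 by symbol. A means model of 4 groups with 16 residual degrees of freedom was fitted in R 4.3.3 with version 1.17.8 of data.table by limma 3.58.1, with lmFit followed by eBayes, tested on simulated data, with two-sided tests and Benjamini-Hochberg adjustment. Figures were drawn with matplotlib 3.10.9.

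The members and lists were chosen with earlier results of these data known, and the other lists were named as up to 3 called genes at each end. The list of genes of the TGF-beta arm is not reported here. Values by array are given for called members (the 8 highest and lowest per comparison) and for 12 genes whatever their values: Col1a1, Col1a2, Col3a1, Col4a1, Col5a1, Col6a1, Col15a1, Serpinh1, P4ha1, Plod2, Lox and Pcolce. The labels tie both muscles of 1 number to 1 mouse. Deviations from the group means correlated at -0.345 to 0.171 over the 10 mice (median 0.034), and at -0.306 to 0.168 between HLS and control arrays of 1 number, which are different mice. Alternatives were normexp background (offset 50), quantile normalization, the authors' table of values, other filters, the mean of a gene's probes, the compared groups alone, blocks for animal, number, slide and scan day, and leaving out each array. Scaling to E1A spike-ins and values within a batch, or of the fibre lists, without soleus HLS 1 were chosen after seeing the data.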

Additional observations from a re-analysis of the deposited data

Results flagged for a closer look

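In 12 of 188 groups of 5 arrays, 1 array lay far from the other 4 by Dixon's criterion (gap over range above 0.71). Chance flags about 1 in 20 groups, so this number is near that. Of soleus HLS arrays, Lox stood at 0.81 on array 1, against -1.16 to -0.66 on the other 4, and array 1 is also the one that stood apart in fibre genes. On soleus HLS 5, Col4a4 stood at -0.68 (others -0.40 to -0.29) and Plod3 at -0.16 (others 0.27 to 0.35).

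Among soleus controls, array 4 was high for Col18a1 at 3.35 (others 2.57 to 2.67) and for Pcolce at 5.62 (others 5.19 to 5.24). Col6a2 was low on soleus control 2 at 0.11 (others 0.92 to 1.08), and Col24a1 low on soleus control 1 at -1.44 (others -1.14 to -1.03).

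Gastrocnemius HLS 3 held Col17a1, a collagen of epithelial hemidesmosomes, at 1.57, against -2.26 to -1.71 on the other 4 arrays. A second Col17a1 probe was also highest there, at -0.61, against -2.40 to -1.78. Col4a1 was high on gastrocnemius HLS 1 at 3.07 (others 2.41 to 2.52).

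Among gastrocnemius controls, array 4 was high for Col7a1 at 2.78 (others 2.44 to 2.53) and for P4ha2 at 1.97 (others 1.72 to 1.77), and array 1 was low for Col11a1 at 2.05 (others 2.19 to 2.24). The causes were not tested.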

How the results depend on the processing

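Counts of called genes are given against the 11 lower in soleus, the 5 lower in gastrocnemius, the 3 higher and 7 lower in soleus than in gastrocnemius of HLS mice, and the 5 higher and 7 lower in controls. 1 gene, Col7a1, was higher in soleus HLS with normexp background, quantile normalization, the filter on all 20 arrays or slide as a random block. Normexp gave 4 lower in the muscle comparison of HLS mice and 8 higher in that of controls, where the mean of probes gave 11 lower. The compared groups alone gave 11 lower in gastrocnemius. With slide as a fixed block 0 were lower in either muscle. Scan day as a block gave 7 lower in soleus, 0 in gastrocnemius, and 0 higher and 1 lower between control muscles. The E1A spike-ins averaged 1.75 ± 0.20 on HLS and 1.50 ± 0.05 on control arrays of soleus, and 1.77 ± 0.14 on HLS and 2.54 ± 0.08 on control arrays of gastrocnemius (SD, n = 5 each). Scaled to them, 20 were lower in soleus, 26 higher and 0 lower in gastrocnemius, 44 lower in the interaction, 45 higher and 0 lower between control muscles, and 4 lower between HLS muscles. These counts follow shifts of all genes, and the share of all genes called on that scale was not counted. On that scale Col15a1 (0.31) and P4ha2 (0.17) turned sign in gastrocnemius, and between control muscles Col24a1 (0.26), Col4a3 (0.56), Col7a1 (0.35), Col9a1 (0.67), Col9a3 (0.63), P4ha1 (0.47) and Plod1 (0.71) did. Col1a1 between HLS muscles became -0.03 with the mean of its probes. Leaving out 1 array gave 7 to 12 lower and 0 to 1 higher in soleus, 2 to 5 lower and 0 to 0 higher in gastrocnemius, 0 to 0 in either direction in the interaction, 1 to 9 higher and 4 to 7 lower between HLS muscles, and 4 to 7 higher and 4 to 7 lower between control muscles.

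With the number as a replicate block, 5 genes were lower in soleus and 3 in gastrocnemius, although numbers mark different mice there. With the animal as a random replicate block (consensus correlation -0.005) all 141 results on single genes kept their side of the threshold and their direction. The authors' table of values changed none of 235. The causes of the changes above were not tested, and depth is limited by signal over background and by 5 arrays per group.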

Other observations

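The brightest Col2a1 probe followed Col3a1 on every array. Col2a1 encodes the main collagen of cartilage. Its level ranged from 2.77 to 4.16 and that of Col3a1 from 6.01 to 7.34, yet on the 20 arrays their log2 difference (Col2a1 minus Col3a1) stayed between -3.46 and -3.11. The SD of that difference was 0.09, against an SD of 0.39 for the less variable of the pair, the lowest ratio (0.22) among 1081 pairs of the 47 genes. The next pair, Col15a1 with Pcolce, had a ratio of 0.47. A second Col2a1 probe ranged from -0.30 to 0.49 and did not share the pattern: on soleus HLS 1, where the brightest probe was at 2.84, it stood at 0.34, and on soleus HLS 3, where the brightest was at 3.82, it stood at -0.22. The mean over 5 cartilage markers was -1.76 to -1.38 on soleus HLS arrays, against -1.85 to -1.38 on soleus control arrays. What the brightest Col2a1 probe binds was not tested, and the pair was singled out after its values were seen.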
